A study of Mus musculus with 5 samples.

Results

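The cell cycle genes and cyclin inhibitors are 45 mouse genes chosen by name from the 54232 genes of the deposited table, comprising cyclins, their kinases, the inhibitors of these kinases, replication genes and genes of mitosis. All 45 were found by gene symbol in GENCODE M21 and all 45 were among the 18156 genes tested, those that reached 5 normalized counts in 1 sample or more. Primary myoblasts, the muscle precursor cells that fuse into myotubes, were taken with magnetic beads from leg muscles of mice several weeks old and kept for 72 h in differentiation medium with horse serum. Poly-A RNA was sequenced from WT cells (n = 3) and from cells homozygous for the Elmo2EID allele, written Elmo2EID/EID (n = 2). ELMO2 is a partner of DOCK exchange factors in RAC signalling, and the EID mutation favours its open conformation. The allele is a knock-in made by homologous recombination, so every cell of the animal carries it and read counts per gene do not check the genotype, and mice of both genotypes were on a mixed C57BL6 and 129SV background. Each sample is a bulk culture, and the labels do not tie samples to single animals, so p-values measure the spread between these samples, which may be technical.

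A myoblast must leave the cell cycle before it becomes a myotube. D-type cyclins with Cdk4 and Cdk6, and then E-type cyclins with Cdk2, phosphorylate the retinoblastoma proteins, which releases E2F factors to switch on replication genes, and a later wave of genes, under FOXM1 and the B-MYB and MuvB complex, drives mitosis. The Cdk inhibitors hold these kinases back, and p21, encoded by Cdkn1a, is known for its rise when myoblasts stop dividing and differentiate.

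The replication and mitosis genes are known to carry different promoter motifs, E2F sites in the former and CHR elements with CCAAT boxes in the latter, and the RefSeq promoters (GRCm38.p6, 250 bases before to 50 after the start) were searched on both strands for their letters. E2F was searched as TTTCCCGC, TTTCGCGC, TTTGCCGC and TTTGGCGC, CHR as TTTGAA and TTCGAA, and the CCAAT box as CCAAT. A promoter was listed for 36 of the 45 genes, and not for Ccnd1, Ccnd2, Ccne2, Rb1, Mcm4, Ccna2, Foxm1, Aurkb and Kif20a. CHR letters were present in 12 of 15 mitosis genes (80.0%), in 2 of 9 replication genes (22.2%) and in 21.7% of the 27025 genes with a listed promoter. The order was the other way for E2F, found in 4 of 9 replication genes (44.4%), in 1 of 15 mitosis genes (6.67%) and in 2.60% of all genes. CCAAT was present in 14 of 15 mitosis genes, in 8 of 9 replication genes and in 41.1% of all genes. A match is a description of the letters and not a bound site. The window from 120 bases before to 30 bases after the start is given for Mcm3, the replication gene with the lowest log2 fold change, and for the mitosis genes Kif23, Ccnb2 and Top2a, whose values are described further on, with matches to these motifs in capitals. None of the capitalised matches overlap.
Mcm3 (chr1:20820283-20820432, minus strand): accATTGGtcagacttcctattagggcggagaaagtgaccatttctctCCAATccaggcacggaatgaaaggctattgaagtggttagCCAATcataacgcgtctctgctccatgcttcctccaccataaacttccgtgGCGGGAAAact
Kif23 (chr9:61946770-61946919, minus strand): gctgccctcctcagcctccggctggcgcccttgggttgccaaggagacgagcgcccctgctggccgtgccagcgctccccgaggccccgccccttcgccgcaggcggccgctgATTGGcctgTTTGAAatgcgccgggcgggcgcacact
Ccnb2 (chr9:70421525-70421674, minus strand): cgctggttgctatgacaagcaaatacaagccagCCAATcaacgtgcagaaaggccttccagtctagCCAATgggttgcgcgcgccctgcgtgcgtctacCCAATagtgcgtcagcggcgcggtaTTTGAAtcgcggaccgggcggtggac
Top2a (chr11:99024160-99024309, minus strand): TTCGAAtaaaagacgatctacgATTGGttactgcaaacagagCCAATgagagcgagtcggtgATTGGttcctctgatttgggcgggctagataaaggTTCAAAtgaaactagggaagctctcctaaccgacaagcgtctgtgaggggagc
Mcm3 held an E2F match and 3 CCAAT matches and no CHR match in this window. Kif23 and Ccnb2 each held a CHR match close after the start, beginning 3 and 5 bases from it, and Top2a held 2 CHR matches before it. No E2F match was present in the windows of Kif23, Ccnb2 and Top2a.

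The values are read counts per gene divided by a size factor of the sample, called normalized counts, and the reads recovered from them summed to 35021856 to 49381544 per sample. WT replicate 3 had the fewest reads and stood apart in the mitosis genes, so log2 fold changes without it are given for each mitosis gene and plotted for all 45 genes. The 15 muscle differentiation markers were all detected, with summed levels of 2289920 to 2641980 normalized counts, and 0 of 15 differed between genotypes in limma (1 at an unadjusted p under 0.05), edgeR or DESeq2. Endothelial markers were present at low levels and higher in Elmo2EID/EID: 11 of 12 lay above all WT samples (16.7% of all genes did), 0 passed limma (8 at an unadjusted p under 0.05, all higher), edgeR called Robo4 and DESeq2 called Robo4, Tie1, Esam and Erg. Their sum was 969, 234 and 1009 normalized counts in WT against 2478 and 3817 in Elmo2EID/EID. The 10 markers of undifferentiated myoblasts summed to 61221 to 67211 in WT and 53501 to 56023 in Elmo2EID/EID. Itga7 was the largest part of this sum in every sample, at 30620 to 40757, and the median log2 fold change of the 10 was -0.27. Pax7, the satellite cell factor, was the 1 of them that passed, at 922, 942 and 837 in WT against 414 and 298 in Elmo2EID/EID (limma, Benjamini-Hochberg adjusted p = 0.00764), while Myf5, at 3122, 2188 and 4399 in WT against 5152 and 5254 in Elmo2EID/EID, and Cd34 lay above all WT samples without passing limma (adjusted p = 0.237 and 0.242). DESeq2 also called Vcam1, Heyl and Spry1 lower. Of 7 tested pericyte genes, 2 passed limma and were lower, Rgs5 and Notch3, and 2 others, Cspg4 and Myh11, lay above all WT samples without passing (adjusted p = 0.264 and 0.2505). In limma and edgeR 0 of 7 fibroblast, 0 of 7 Schwann and 0 of 6 macrophage markers passed (3, 2 and 1 at an unadjusted p under 0.05 in limma), DESeq2 called the fibroblast genes Col3a1 and Gsn lower, and the macrophage marker Fcgr1 was at 0 in every sample. The part of any of these cells in the results on the cell cycle genes was not tested.

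The question of the comparison was which cell cycle genes differ in level between differentiated WT and Elmo2EID/EID myoblasts. Ccnd2 and Ccne1, a D-type and an E-type cyclin, were lower in Elmo2EID/EID, and these were the 2 of 45 genes (4.44%) that passed limma with Benjamini-Hochberg adjustment at 0.05. Among all 18156 genes tested, 2.23% passed, 1.14% lower and 1.09% higher. The quasi-likelihood test of edgeR, run on recovered reads, called the same 2 genes (1.13% of all genes were called and lower), and the Wald test of DESeq2 called 6 of the 45 (5.34% of all genes, 3.06% lower and 2.27% higher), Ccnd2, Ccne1, Rbl2, Cdkn2a and Kif23 lower and Rrm2 higher. At an unadjusted p under 0.05 in limma, 19 of the 45 were lower (8.31% of all genes) and 1 was higher (6.93% of all genes). Fewer cycling cells and less RNA per cell cannot be told apart in these bulk samples. Both Elmo2EID/EID samples lay below all WT samples in 20 of the 45 genes (44.4%, against 15.9% of all genes), and above all WT samples in 3, Cdkn1b, Rrm1 and Rrm2 (6.67%, against 16.7% of all genes). The log2 fold change was below 0 in 37 of 45 genes (82.2%, against 47.9% of all genes), with a median of -0.26 over the 45 genes and 0.01 over all genes. The median was -0.33 without WT replicate 3.

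**Figure D1:**
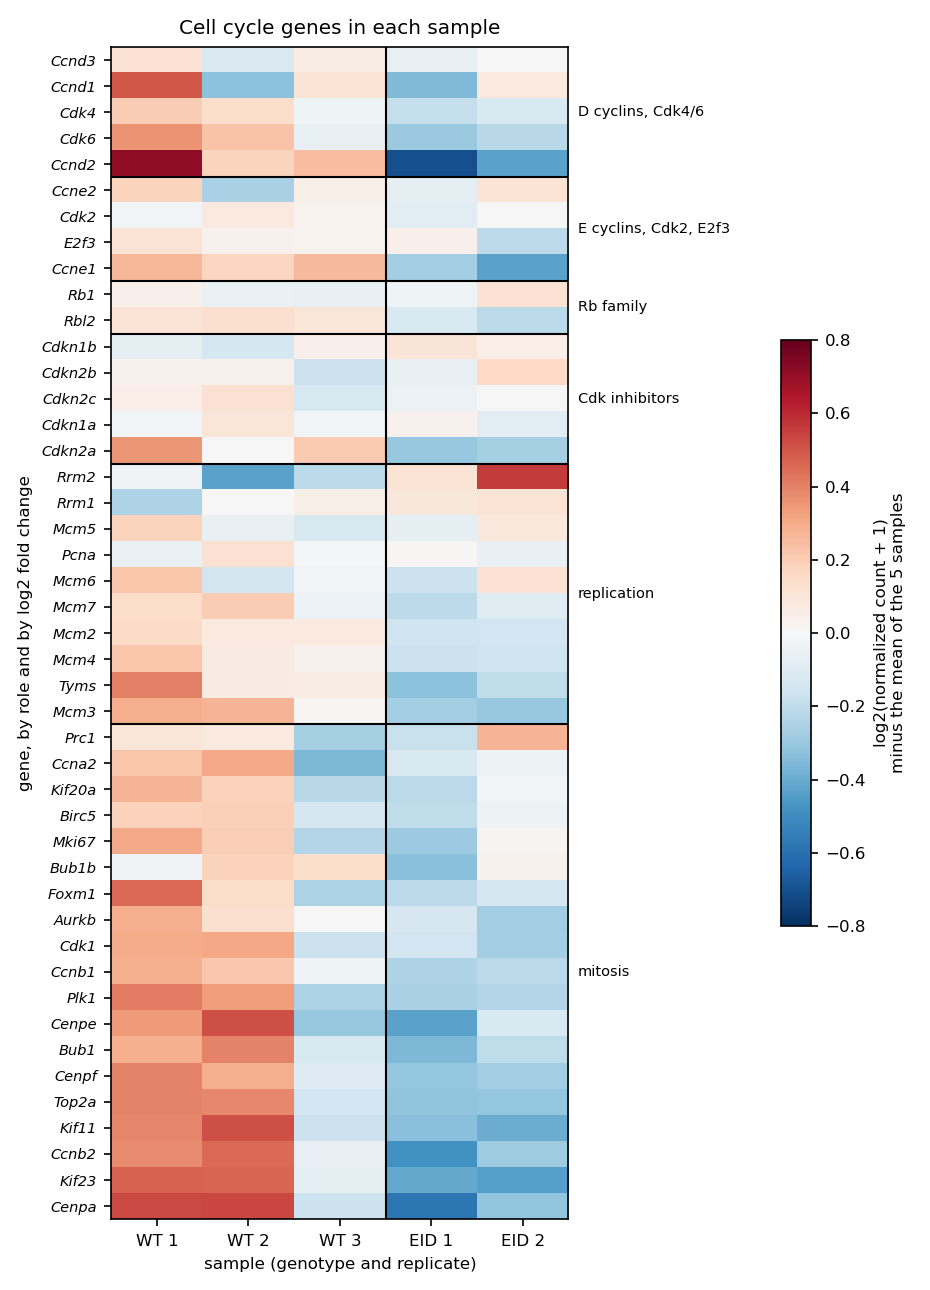
Level of each of the 45 genes in each sample, as log2(normalized count + 1) minus the mean of the 5 samples. Rows are genes ordered by role and columns are samples, WT 1 to 3 and EID 1 and 2 (Elmo2EID/EID). Most rows of the mitosis block are red in WT 1 and WT 2 and blue or pale in the other 3 samples, while Ccnd2 and Ccne1 are red in all 3 WT samples and blue in both EID samples.

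Levels between genes were compared as normalized counts per kb of exon. Cdkn1a had the highest level of the 45 genes by a wide margin, with a mean of 24312 per kb over the 5 samples, rank 51 of 18142 genes. Next came Ccnd3 at 1973, Rb1 at 1626 and Rrm2 at 1365 per kb, and the ranges of Rb1 and Rrm2 overlapped between samples. The 19 mitosis genes lay at the low end, from 20.8 per kb for Cenpf to 102 per kb for Top2a. Neighbours in this order mostly overlapped in their sample ranges, as the plot of levels per length shows.

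**Figure D2:**
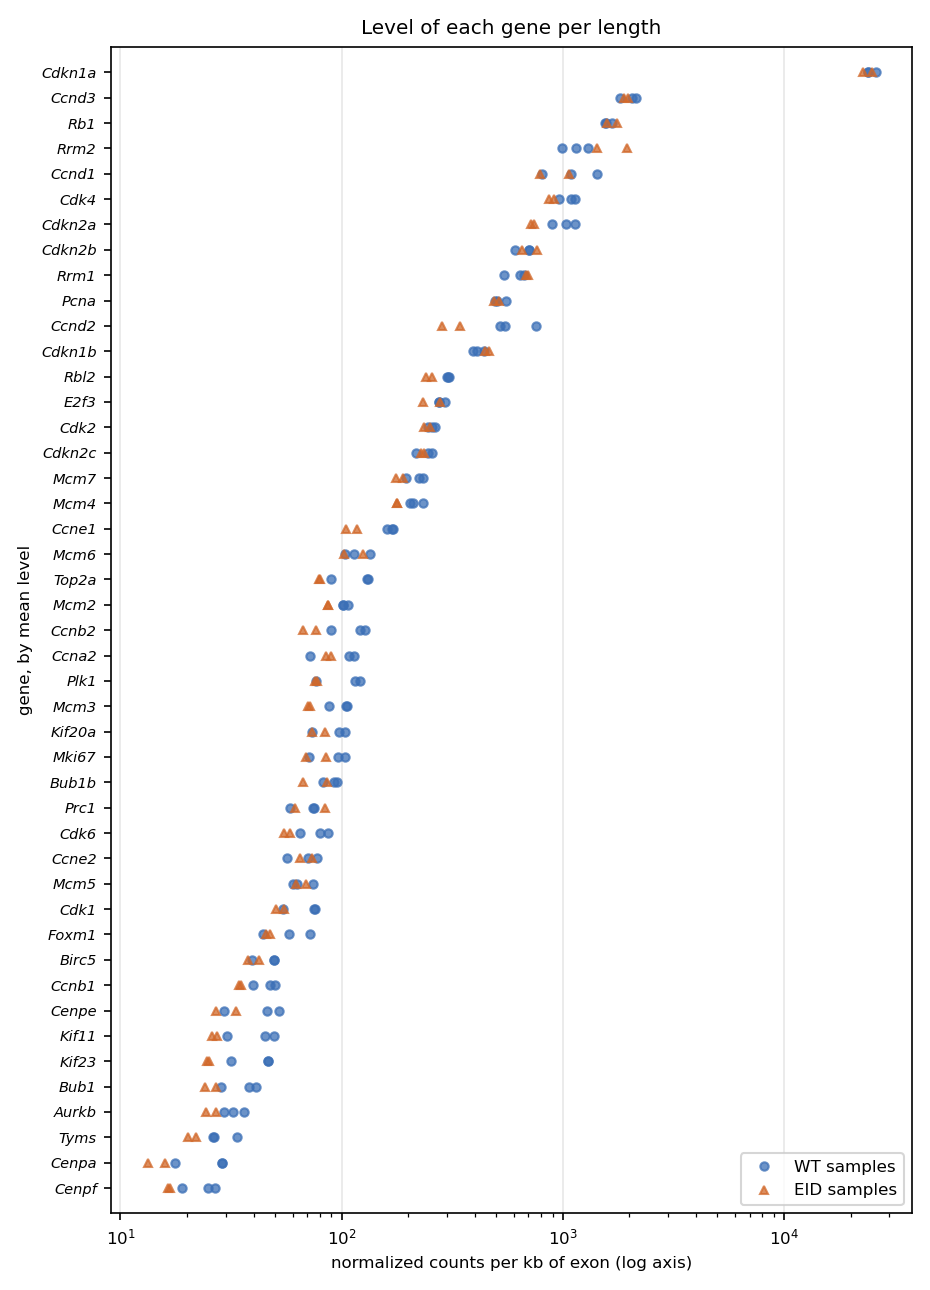
Level of each of the 45 genes in normalized counts per kb of exon on a log axis, with genes ordered by their mean over 5 samples. Circles are the 3 WT samples and triangles the 2 Elmo2EID/EID samples. Cdkn1a stands alone at the top at 24312 per kb, and the mitosis genes lie near or below 100 per kb.

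D-type cyclins start the passage from growth factor signals to the cell cycle. Ccnd2 (chr6:127125162-127152193) had 7112, 4903 and 5146 normalized counts in WT against 2667 and 3224 in Elmo2EID/EID, that is 5721 ± 1212 (SD, n = 3) against 2945 ± 394 (SD, n = 2). The groups did not overlap, and the highest Elmo2EID/EID sample lay well under the lowest WT sample. Ccnd2 fell by 0.94 on the log2 scale (SE 0.17, 95% confidence interval -1.35 to -0.54, limma adjusted p = 0.045), to a ratio of means of 0.515. Its adjusted p was 0.0714 without WT replicate 3 and between 0.0557 and 0.269 over the 5 fits that each left out 1 sample, so the call needed all 5 samples. Ccnd1 varied more within each genotype than between them, with 6722, 3797 and 5151 normalized counts in WT against 3729 and 5024 in Elmo2EID/EID. Ccnd3, the D-type cyclin known to persist in myotubes, had 18725, 15955 and 18032 in WT against 16549.6 and 17299 in Elmo2EID/EID. The log2 fold changes of Ccnd1 and Ccnd3 were -0.23 (95% confidence interval -0.80 to 0.33) and -0.05 (-0.25 to 0.15), and neither passed limma (adjusted p = 0.717 and 0.831). Per kb of exon, Ccnd2 made up 17.5%, 16.6% and 14.8% of the 3 D-type cyclins in WT and 9.57% and 10.1% in Elmo2EID/EID. Ccnd3 was the largest share in every sample, from 49.4% to 63.7%, and Ccnd1 held 25.6% to 33.1%.

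Cdk4 and Cdk6 are the kinases that D-type cyclins bind. Cdk4 had 3689, 3533 and 3133 normalized counts in WT against 2808 and 2951 in Elmo2EID/EID, and Cdk6 had 1216, 1113 and 907 in WT against 771 and 814 in Elmo2EID/EID. Every Elmo2EID/EID value of both kinases lay below every WT value, and WT replicate 3 was the lowest WT sample for both. The log2 fold changes were -0.26 (SE 0.08) for Cdk4 and -0.43 (SE 0.13) for Cdk6, and neither passed limma (adjusted p = 0.216 and 0.177). Without WT replicate 3 they were -0.33 and -0.55 (adjusted p = 0.0875 and 0.0504). Cdk4 was the main kinase at 92.9% to 94.0% of the summed level of both per kb. Across the 5 genes of this group the median log2 fold change was -0.26, and all 5 values were below 0.

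The E-type cyclins activate Cdk2 at the entry into replication. Ccne1 (chr7:38097984-38107534) had 454, 425 and 451 normalized counts in WT against 312 and 279.7 in Elmo2EID/EID, that is 443 ± 16.0 (SD, n = 3) against 296 ± 22.9 (SD, n = 2). WT replicate 3 was within the range of the other WT samples here, and the groups were far apart compared with the spread within them. Ccne1 fell by 0.58 on the log2 scale (SE 0.10, 95% confidence interval -0.83 to -0.34, limma adjusted p = 0.0431), to a ratio of means of 0.667. Its adjusted p was 0.0878 without WT replicate 3, and it lay between 0.0878 and 0.281 when each sample in turn was left out. Ccne2, its paralog, had 270.4, 199 and 246 in WT against 226 and 257 in Elmo2EID/EID, with a log2 fold change of 0.03 (95% confidence interval -0.36 to 0.42, limma adjusted p = 0.955). The 2 genotypes overlapped for Ccne2. Cdk2 had 1533, 1643 and 1587 in WT against 1463 and 1562 in Elmo2EID/EID. E2f3, an activating E2F factor, had 1587, 1501 and 1498 in WT against 1508 and 1269 in Elmo2EID/EID. Both overlapped between the genotypes and did not pass limma, with log2 fold changes of -0.07 for Cdk2 (adjusted p = 0.709) and -0.14 for E2f3 (adjusted p = 0.524).

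RB1 and p130, encoded by Rbl2, are the pocket proteins of non-dividing cells that hold E2F target genes silent. Rb1 had 10032, 9399.8 and 9359 normalized counts in WT against 9530.0 and 10578 in Elmo2EID/EID, overlapping ranges with a log2 fold change of 0.07 (95% confidence interval -0.10 to 0.24, limma adjusted p = 0.735). Rbl2 varied little within a genotype, with 2280.4, 2303 and 2261 in WT against 1939 and 1819 in Elmo2EID/EID. The genotypes did not overlap for Rbl2, and its log2 fold change of -0.28 (SE 0.06) had a limma adjusted p of 0.0861. In the Wald test of DESeq2 the adjusted p of Rbl2 was 0.0147.

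The Cdk inhibitors had no common direction, with 3 log2 fold changes below 0 and 2 above and a median of -0.04, and 0 of the 5 passed limma, while edgeR called 0 of them and DESeq2 called 1 lower, Cdkn2a (3.06% of all genes were called lower). At an unadjusted p under 0.05 in limma, 1 of the 5 was lower (against 8.31% of all genes). Cdkn1a (p21, chr17:29090976-29100727) had 84912, 92277 and 85032 normalized counts in WT against 88504 and 81173 in Elmo2EID/EID. Its ranges overlapped, and the log2 fold change of -0.04 had a 95% confidence interval of -0.24 to 0.15 (limma adjusted p = 0.860). Cdkn1a made up 90.5% to 92.3% of the summed level of the 5 inhibitors per kb in every sample. Cdkn1b (p27), which binds Cdk2 complexes, had 1864, 1781 and 2015 in WT against 2105 and 2032 in Elmo2EID/EID. Both Elmo2EID/EID samples lay above all WT samples by a small margin, with a log2 fold change of 0.13 (95% confidence interval -0.05 to 0.31, limma adjusted p = 0.465).

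The INK4 inhibitors bind Cdk4 and Cdk6. Cdkn2a, whose locus also encodes ARF from an alternative reading frame, had 1335, 1045 and 1207 normalized counts in WT against 845 and 866 in Elmo2EID/EID. The genotypes did not overlap, and the log2 fold change was -0.48 (SE 0.11) with an adjusted p of 0.0926 in limma and 0.00999 in DESeq2. Counts per gene do not separate the INK4A and ARF transcripts. Cdkn2b (p15) had 979, 978 and 845 in WT against 914 and 1068 in Elmo2EID/EID, and Cdkn2c (p18) had 659, 692 and 581 in WT against 615 and 637 in Elmo2EID/EID. Both overlapped between the genotypes, and their limma log2 fold changes were 0.08 for Cdkn2b (adjusted p = 0.778) and -0.04 for Cdkn2c (adjusted p = 0.903).

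Cdkn1c (p57), an inhibitor outside the 45 genes that is known in muscle differentiation, did not pass limma with all samples and did without WT replicate 3. It had 10936, 12188 and 7586 normalized counts in WT against 6609 and 6602 in Elmo2EID/EID. WT replicate 3 lay between the other WT samples and the Elmo2EID/EID samples, much nearer to the latter. The log2 fold change was -0.60 (SE 0.19, limma adjusted p = 0.193) with all samples and -0.81 (SE 0.07, limma adjusted p = 0.0115) without WT replicate 3, and DESeq2 gave an adjusted p of 0.0147 with all samples. In the list of 19 other inhibitors, E2F and DREAM factors, 0 passed limma with all samples, with a median log2 fold change of -0.07. At an unadjusted p under 0.05 in limma, 4 were lower (against 8.31% of all genes) and 1 was higher (against 6.93%). Without WT replicate 3, 2 of the 19 passed limma and were lower, Cdkn1c and E2f8 (against 0.942% of all genes). E2f8, a repressive E2F factor, had 1299.7, 1188 and 707 in WT against 555 and 743 in Elmo2EID/EID, so the genotypes overlapped through WT replicate 3. The log2 fold change was -0.68 (limma adjusted p = 0.294), and -0.95 (limma adjusted p = 0.0491) without that sample. WT replicate 3 was low in both Cdkn1c and E2f8, so leaving it out lowers their fold changes by construction. Their p-values without it are no independent test. Of 14 other p53 targets, 0 passed limma or edgeR and 2, Sesn2 and Zmat3, passed DESeq2 and were lower (against 3.06% of all genes). In limma 3 were lower at an unadjusted p under 0.05 (against 8.31% of all genes, lowest adjusted p = 0.0682 by limma) and the median was -0.06. Sesn2 had 894, 763 and 859 in WT against 621 and 591 in Elmo2EID/EID, and Sesn1 had 1929, 2065 and 1671 in WT against 1563 and 1439.8 in Elmo2EID/EID. In these stress-induced sestrins no Elmo2EID/EID value reached the lowest WT value, with log2 fold changes of -0.47 and -0.33. Neither passed limma, and DESeq2 called Sesn2 (adjusted p = 0.00538) and not Sesn1.

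**Figure D3:**
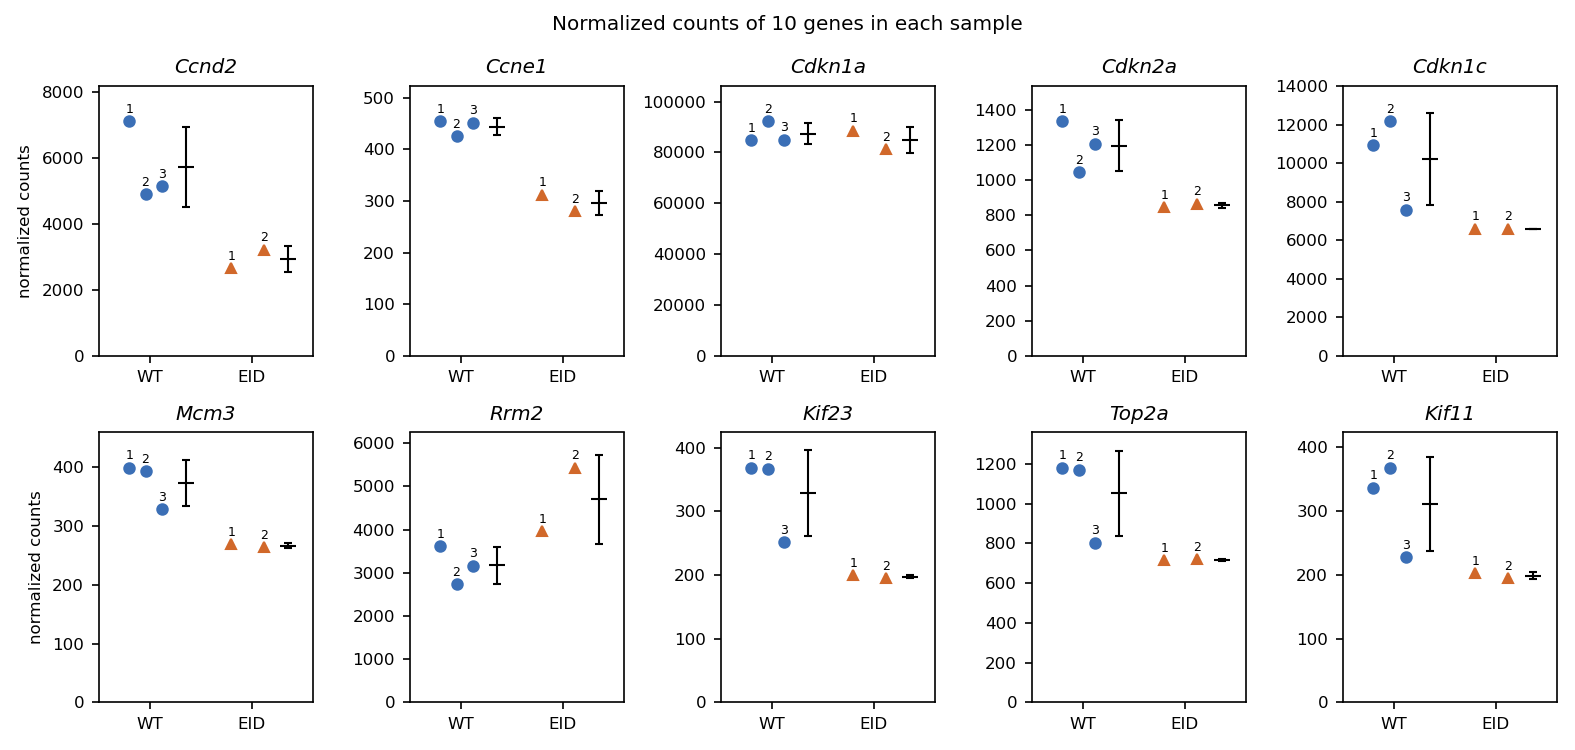
Normalized counts of 10 genes in each sample, with circles for WT and triangles for Elmo2EID/EID, the replicate number above each point, and the mean with its SD as a bar beside the points (n = 3 and n = 2). All axes start at 0. Ccnd2 and Ccne1 separate the genotypes in all samples, Cdkn1a overlaps, and in Cdkn1c, Kif23, Top2a and Kif11 WT replicate 3 lies nearest to the Elmo2EID/EID samples.

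The 10 replication genes differed among themselves in direction. The median log2 fold change was -0.15, 0 genes passed limma (6 at an unadjusted p under 0.05, of which 5 were lower, against 8.31% of all genes, and 1 higher, against 6.93%), 5 were lower in both Elmo2EID/EID samples than in all WT samples (against 15.9% of all genes) and 2 were higher (against 16.7% of all genes). The MCM proteins form the ring that unwinds DNA, and its subunits share 1 complex. Mcm3 had 398, 393 and 328 normalized counts in WT against 269 and 264 in Elmo2EID/EID (log2 fold change -0.48, SE 0.12, limma adjusted p = 0.122). Mcm2 had 747, 709 and 707 in WT against 602 and 604 in Elmo2EID/EID, and Mcm4 had 836, 752 and 732 in WT against 636 and 640.1 in Elmo2EID/EID. In these 3 subunits both Elmo2EID/EID samples were nearly equal and below every WT sample. Mcm7 showed the same order, with 996, 1033 and 869 in WT against 776 and 839 in Elmo2EID/EID. The log2 fold changes of Mcm2, Mcm4 and Mcm7 were -0.26, -0.27 and -0.25, with limma adjusted p of 0.191, 0.216 and 0.292. Mcm5 had 296, 251 and 239.9 in WT against 248.6 and 277 in Elmo2EID/EID, and Mcm6 had 626, 485 and 528 in WT against 477 and 581 in Elmo2EID/EID. These 2 subunits overlapped between the genotypes, with log2 fold changes of 0.01 (95% confidence interval -0.32 to 0.33) and -0.05 (-0.38 to 0.29). Pcna, the sliding clamp of the polymerases, also overlapped, at 1179.5, 1329 and 1209.5 in WT against 1231 and 1175 in Elmo2EID/EID.

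The nucleotide supply genes had log2 fold changes of opposite sign, and none of the 3 passed limma or edgeR. DESeq2 called 1 of them higher, Rrm2 (against 2.27% of all genes). Ribonucleotide reductase makes deoxynucleotides from Rrm1 and Rrm2 subunits. Rrm2 had 3609, 2740.3 and 3169 normalized counts in WT against 3963 and 5432 in Elmo2EID/EID, and Rrm1 had 5968, 7080.1 and 7334 in WT against 7544 and 7649 in Elmo2EID/EID. Both subunits were highest in the Elmo2EID/EID samples, but the Elmo2EID/EID samples of Rrm2 differed widely from each other. The log2 fold change was 0.56 for Rrm2 (SE 0.16, 95% confidence interval 0.18 to 0.94, adjusted p = 0.164 by limma and 0.0193 by DESeq2) and 0.17 for Rrm1 (95% confidence interval -0.06 to 0.39, limma adjusted p = 0.476). Tyms, which makes thymidylate, had 204, 162 and 160.4 in WT against 123 and 134 in Elmo2EID/EID, no overlap and a log2 fold change of -0.44 (SE 0.16, limma adjusted p = 0.270). Among 28 other replication genes, all 28 had a log2 fold change below 0 (against 47.9% of all genes), from -0.46 to -0.0069 with a median of -0.22. In 15 both Elmo2EID/EID samples were lower than all WT samples (against 15.9% of all genes). None of the 28 passed limma, edgeR or DESeq2, and 4 were lower at an unadjusted p under 0.05 in limma (against 8.31% of all genes). Pold1, the catalytic subunit of polymerase delta, had 389.6, 347 and 385 in WT against 292 and 268 in Elmo2EID/EID. Tk1, the thymidine kinase of the salvage pathway, had 133, 99.8 and 82.0 in WT against 69.8 and 79.8 in Elmo2EID/EID. Both separated the genotypes, with log2 fold changes of -0.42 for Pold1 (limma adjusted p = 0.132) and -0.46 for Tk1 (limma adjusted p = 0.429).

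The 19 mitosis genes were the group with the lowest median log2 fold change, -0.39, and 18 of 19 values were below 0. With all 5 samples 0 passed limma (8 at an unadjusted p under 0.05, all lower, against 8.31% of all genes). The count tests called 0 with edgeR and 1 lower with DESeq2, Kif23 (against 3.06% of all genes). Both Elmo2EID/EID samples lay below all WT samples in 9 of 19 (against 15.9% of all genes). The summed normalized counts of these genes were 7655, 7583 and 5473 in WT against 5091 and 5695 in Elmo2EID/EID, so WT replicate 3 fell within the range of the Elmo2EID/EID samples. WT replicate 3 was the lowest WT sample in 18 of 19 mitosis genes, in 6 of 10 replication genes and in 36.6% of all genes. Its difference from the mean of WT replicates 1 and 2 on the log2 scale had a median of -0.48 in mitosis genes, -0.09 in replication genes and -0.0027 in all genes. The mean of the Elmo2EID/EID samples differed from WT replicate 3 by a median of -0.16 in mitosis genes, where both samples lay below it in 10 genes, both above it in 4 and on either side of it in 5. Muscle differentiation markers were also lowest among WT in replicate 3 in 11 of 15 genes, with a median difference of -0.15 from the other WT samples. The 7 tested Schwann genes had a median difference of 1.16 in the other direction, and replicate 3 was the lowest WT sample in 0 of them. Sox10, a Schwann factor, had 18.6, 2.24 and 97.0 normalized counts in WT against 89.4 and 43.0 in Elmo2EID/EID, while Erbb3, which makes up most of the summed Schwann level, had 15905, 16916 and 16308 in WT against 15171 and 15067 in Elmo2EID/EID. In the endothelial genes the WT sample that stood apart was replicate 2, the lowest WT sample in 12 of 12. The part of depth, of the course of differentiation or of these other cells in this was not tested.

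**Figure D4:**
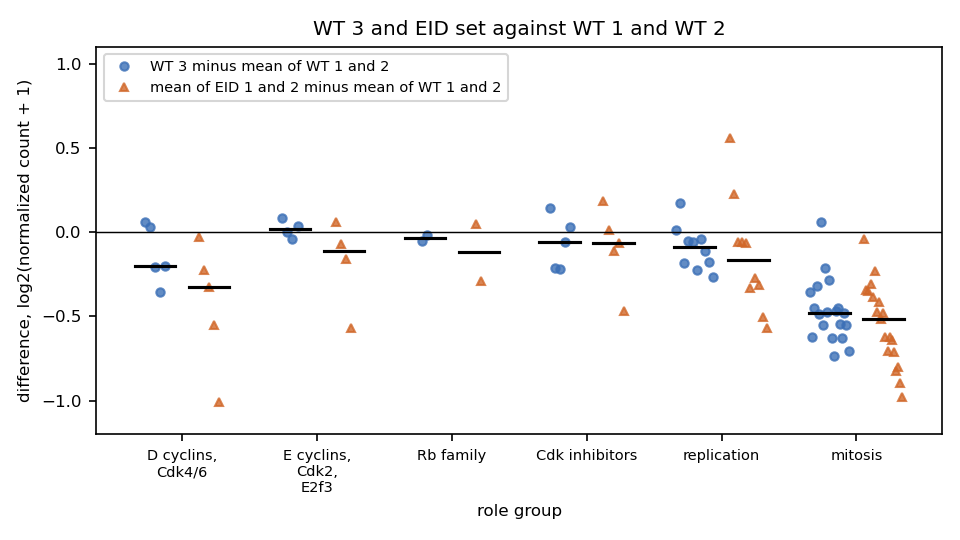
Difference in log2(normalized count + 1) from the mean of WT replicates 1 and 2, for WT replicate 3 (circles) and for the mean of the 2 Elmo2EID/EID samples (triangles), for each of the 45 genes by role group. Bars are medians. In the mitosis genes both lie below 0, with medians of -0.48 and -0.52, and in the 4 groups of cyclins, Rb family and inhibitors the circles stay nearer to 0.

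Without WT replicate 3, the median log2 fold change of the mitosis genes was -0.52, 19 of 19 values were below 0 and in 17 both Elmo2EID/EID samples lay below both remaining WT samples, which was so in 23.5% of all genes. Kif23, Top2a and Kif11 were then under the threshold in limma and lower, 3 of the 45 genes (0.942% of all genes passed and were lower). WT replicate 3 was singled out for its low values of these same genes, so leaving it out lowers their fold changes by construction, and these counts and p-values describe how much rests on that sample and are no independent test. Without any other single sample 0 of the 45 genes were called. Kif23 and Kif11 are described because they were called there, a choice made after their values were seen. Kif23, the motor of the central spindle in cytokinesis, had 368, 367 and 251 normalized counts in WT against 199 and 195 in Elmo2EID/EID. Its log2 fold change was -0.71 (SE 0.19, limma adjusted p = 0.132) with all samples and -0.89 (SE 0.12, adjusted p = 0.0296) without WT replicate 3. Top2a, the topoisomerase that untangles chromosomes, had 1181, 1171 and 804 in WT against 715 and 723 in Elmo2EID/EID. WT replicate 3 stood much closer to the Elmo2EID/EID samples than to the other WT samples, and the log2 fold change moved from -0.53 (SE 0.17, limma adjusted p = 0.216) to -0.71 (SE 0.08, adjusted p = 0.0183) without it. Kif11, the motor that separates spindle poles, had 337, 368 and 227 in WT against 203 and 195 in Elmo2EID/EID (log2 fold change -0.61, limma adjusted p = 0.237, and -0.82, adjusted p = 0.0452, without WT replicate 3). In all 3 genes the Elmo2EID/EID samples were below WT replicate 3 as well.

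The centromere and kinetochore genes differed in whether the genotypes overlapped. Cenpa, the histone variant of centromeres, had 169, 169 and 103 normalized counts in WT against 77.8 and 93.2 in Elmo2EID/EID, and had the lowest log2 fold change of the mitosis genes, -0.75 (SE 0.26, limma adjusted p = 0.235), and -0.98 (adjusted p = 0.071) without WT replicate 3. Cenpf had 414, 385 and 292 in WT against 253 and 258 in Elmo2EID/EID, and the spindle checkpoint kinase gene Bub1 had 166, 178 and 124 in WT against 106 and 117 in Elmo2EID/EID. Neither overlapped between the genotypes, and the log2 fold changes of -0.49 for Cenpf and -0.47 for Bub1 were -0.64 and -0.62 without WT replicate 3. Cenpe, a kinetochore motor, had 398, 449 and 254 in WT against 233 and 288 in Elmo2EID/EID, with WT replicate 3 between the Elmo2EID/EID samples (log2 fold change -0.46, and -0.71 without WT replicate 3). Bub1b, the checkpoint gene for BUBR1, was the exception in that WT replicate 3 was not the lowest WT sample, at 353, 409 and 397 in WT against 285 and 368 in Elmo2EID/EID. Its log2 fold change was -0.25 with all samples and -0.23 without WT replicate 3.

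None of the mitotic cyclins and kinases passed limma, edgeR or DESeq2, and the genotypes overlapped in some of them and not in others. Ccnb2 had 186, 196 and 137 normalized counts in WT against 102 and 117 in Elmo2EID/EID (log2 fold change -0.64, limma adjusted p = 0.194, and -0.80, adjusted p = 0.0853, without WT replicate 3). Ccnb1 had 210.3, 199.7 and 168 in WT against 145 and 148 in Elmo2EID/EID (log2 fold change -0.39, limma adjusted p = 0.287, and -0.48, adjusted p = 0.182, without WT replicate 3). Both B-type cyclins separated the genotypes without passing the test. Cdk1, their kinase, had 370.2, 374 and 267 in WT against 271 and 249.2 in Elmo2EID/EID, and Plk1, a mitotic kinase, had 267, 254 and 168 in WT against 167 and 170.3 in Elmo2EID/EID. In both, WT replicate 3 lay within the range of the Elmo2EID/EID samples, and the log2 fold changes of -0.36 for Cdk1 and -0.41 for Plk1 became -0.52 and -0.62 without it. Aurkb, of the chromosomal passenger complex, had 107, 95.3 and 87.0 in WT against 79.6 and 71.7 in Elmo2EID/EID, and its partner Birc5 had 168, 168 and 134 in WT against 128 and 143 in Elmo2EID/EID. The genotypes were separate for Aurkb, with a log2 fold change of -0.34 with all samples and -0.41 without WT replicate 3, and overlapped for Birc5, whose log2 fold change was -0.20 with all samples and -0.31 without WT replicate 3.

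In the remaining mitosis genes WT replicate 3 lay between or below the Elmo2EID/EID samples. Ccna2, a cyclin of replication and early mitosis, had 439, 466 and 293 normalized counts in WT against 346 and 366 in Elmo2EID/EID, and Foxm1, the factor that drives mitosis genes, had 413, 334 and 254 in WT against 261 and 273 in Elmo2EID/EID. WT replicate 3 was the lowest of the 5 samples for both. Their log2 fold changes were -0.14 and -0.29 with all samples and -0.34 and -0.47 without WT replicate 3. Mki67, the proliferation marker Ki-67, had 1043, 968 and 716 in WT against 691 and 858 in Elmo2EID/EID, overlapping ranges with a log2 fold change of -0.22 (95% confidence interval -0.64 to 0.20, limma adjusted p = 0.627), and it was -0.38 (adjusted p = 0.218) without WT replicate 3. Kif20a, a motor of cytokinesis, had 449, 423 and 318 in WT against 319 and 366 in Elmo2EID/EID, with a log2 fold change of -0.20 with all samples and -0.35 without WT replicate 3. Prc1, which bundles microtubules between separating chromosomes, was the mitosis gene with a log2 fold change above 0, at 0.08 (95% confidence interval -0.33 to 0.48), which became -0.04 without WT replicate 3. Its values were 615, 609 and 479 in WT against 508 and 696 in Elmo2EID/EID, so a single Elmo2EID/EID sample was the highest of all.

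**Figure D5:**
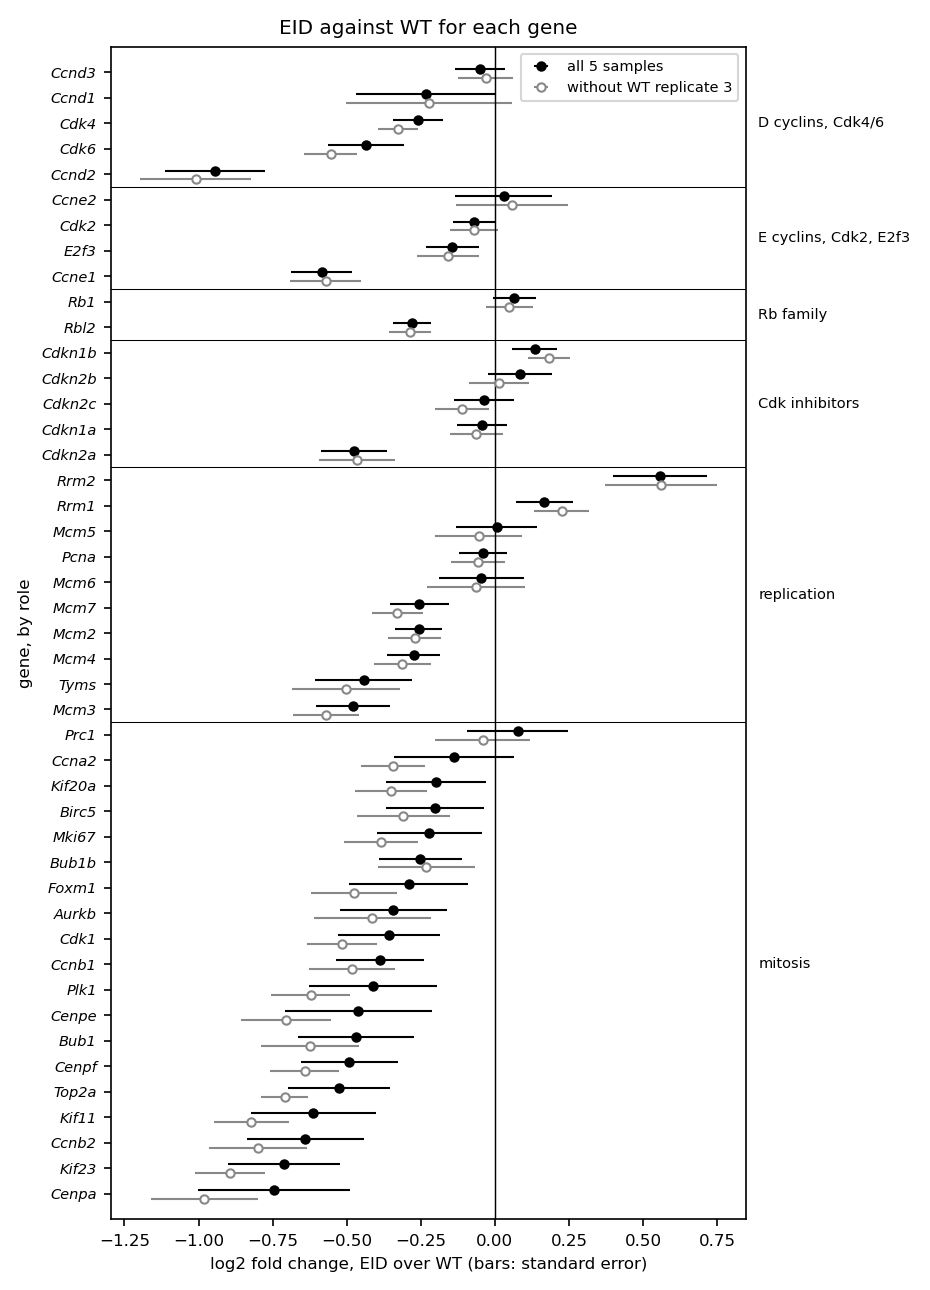
Log2 fold change of Elmo2EID/EID over WT for each of the 45 genes by role, with bars of 1 standard error, for all 5 samples (filled) and without WT replicate 3 (open). Ccnd2 goes from -0.94 to -1.01 and Ccne1 from -0.58 to -0.57, while most mitosis genes shift further below 0, their median going from -0.39 to -0.52.

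In a list of 46 other mitosis genes, 44 log2 fold changes were below 0, with a median of -0.40 (-0.53 without WT replicate 3). WT replicate 3 was the lowest WT sample in 42 of them. These genes were read in the same samples, so they are no independent test of the mitosis genes above. In 19 of 46 both Elmo2EID/EID samples lay below all WT samples (against 15.9% of all genes). Ckap2, a spindle protein gene on chromosome 8, was the 1 of 46 that passed limma and was lower (against 1.14% of all genes), and DESeq2 called 5 (against 3.06% of all genes), Ckap2, Tpx2, Gtse1, Ncaph and Cdc25b, all lower. It had 428, 424 and 313 normalized counts in WT against 195 and 207 in Elmo2EID/EID, and it fell by 0.93 on the log2 scale (SE 0.16, adjusted p = 0.0415 by limma, 0.0383 by edgeR and 0.000119 by DESeq2). Without WT replicate 3 its adjusted p was 0.0176 in limma, and over the 5 fits that each left out 1 sample it lay between 0.0176 and 0.290. Melk, a mitotic kinase gene at low level, had 109, 131 and 79.6 in WT against 51.0 and 77.1 in Elmo2EID/EID, with no overlap and a log2 fold change of -0.73 (SE 0.28, limma adjusted p = 0.290). Near-identical copies had few reads: 24 annotated pseudogenes matched 13 of the 45 genes over at least 300 bases at 90% identity or more, and the highest of them reached 6.28 normalized counts. The counts were of uniquely mapped reads, so reads that fit both a gene and its copy are in neither.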

How the data were processed

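RNA sequencing of 5 samples of primary mouse myoblasts after 72 h of differentiation was analysed, WT (n = 3) and Elmo2EID/EID (n = 2), grouped by the genotype in the sample labels. Untrimmed reads were aligned by the authors with STAR 2.5.1b (GRCm38), and unique alignments were counted by strand with featureCounts 1.4.6. The deposited signal of a gene is its count after division by a size factor from DESeq2 1.34.0. The smallest positive value of a column is the worth of 1 read, and 100.0% of positive values came out as whole reads (tolerance 0.01). A count of 3 reads corresponded to 2.65 to 3.73 normalized counts.

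The main test was limma 3.58.1 (R 4.3.3), two-sided, with a mean-variance trend, on log2(normalized count + 1) for 18156 genes, with Benjamini-Hochberg adjustment over all of them and a threshold of 0.05. Fold changes on this scale understate the change of low genes. Alternatives were other pseudocounts, filters and scalings, edgeR 4.0.16 and DESeq2 1.42.0 on recovered reads, limma without trend, a replicate block, and leaving out each sample. The test was tried on simulated data. Replicates differed by more than sampling noise (chi-square per degree of freedom 26.6 to 37.8).

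The 45 genes, the lists and the tests were chosen with earlier results of these data known. Genes named by rule were those that passed, the 2 highest, the largest rise and the largest fall of each role group, the 5 listed inhibitors, and, from the other lists, those that passed, the 2 largest changes whose mean reached 20 normalized counts, and Cdkn1c; the values of the remaining members were added after they were seen. Gene names and exon lengths came from GENCODE M21, promoters from RefSeq (GRCm38.p6), and copies were found with blastn 2.17.0.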

Additional observations from a re-analysis of the deposited data

How the results depend on the processing

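Genes called over the whole table numbered 404 with limma, 155 with no filter on low values, 969 with DESeq2, 144 without the trend, 224 with the replicate number as a block, and 34 to 335 with 1 sample left out. Of the 45 genes, 2 were called with limma and with edgeR, 1 with genes under a mean of 20 normalized counts left out (Ccne1), 0 with no filter, 0 without the trend, 0 with the replicate block, 6 with DESeq2 (Ccnd2, Ccne1, Rbl2, Cdkn2a and Kif23 lower, Rrm2 higher) and 0 to 3 with 1 sample left out, the 3 being without WT replicate 3. The cause of these differences was not tested. A replicate block gives WT replicate 3 no partner, so its fold changes are those without that sample, and the numbers pair only 2 samples of each genotype. The correlation of replicate 1 minus 2 between genotypes was -0.238 across 13769 genes. This rests on a single difference per genotype, so it cannot settle whether samples of the same number were prepared together. With 1 sample left out, the median log2 fold change ranged from -0.45 to -0.21 for D-type cyclins and their kinases, from -0.063 to 0.017 for the Cdk inhibitors, and from -0.52 to -0.31 for mitosis genes.

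Of 675 values of the 45 genes over 15 alternatives, 632 kept direction and side of the threshold and 19 reversed, in 9 genes with a log2 fold change of 0.08 or nearer to 0. Mcm5 was -0.0075 with equal totals, -0.0064 with edgeR, -0.0015 with DESeq2 and -0.055 with the block, and Prc1 was -0.042 with the block. With 1 sample left out their values ranged from -0.072 to 0.096 for Mcm5, -0.15 to 0.30 for Prc1, -0.19 to 0.097 for Mcm6, -0.076 to 0.0099 for Pcna, -0.096 to 0.13 for Ccne2, -0.11 to 0.017 for Cdkn2c, -0.028 to 0.20 for Cdkn2b, -0.0094 to 0.14 for Rb1 and -0.11 to 0.019 for Cdkn1a. Over all genes together replicates differed by more than sampling noise, and the share of counting error in the spread was not worked out gene by gene for the 45 genes.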
